A study of Glycine max with 18 samples.

Results

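Of the 55589 annotated soybean genes listed in every library, 8 were followed here because they belong to the E1 and FT families that set flowering time. They were chosen by identifier, by a rule that uses none of their values, though with earlier results of these data known. They are E1 (Glyma.06G207800), E1La (Glyma.04G156400), E1Lb (Glyma.04G143300), FT2a (Glyma.16G150700), FT2b (Glyma.16G151000), FT5a (Glyma.16G044100), FT1a (Glyma.18G298900) and FT4 (Glyma.08G363100). RNA-seq was done on the first trifoliate leaf of wild-type Ws82 (Williams 82), a soybean cultivar, in 18 libraries from 6 time points 4 h apart, each with 3 biological replicates called L, M and R. All plants were kept in constant light after growth in light-dark cycles, so the time points differ in the hour of harvest within a free run of the clock. Time spent in constant light and plant age rise with that hour and cannot be told apart from it. No other genotype or treatment is compared here. The time points are named ZT24, ZT28, ZT32, ZT36, ZT40 and ZT44, for harvests labelled 0, 4, 8, 12, 16 and 20 h. ZT24 to ZT32 are here called the subjective light phase and ZT36 to ZT44 the subjective dark phase. The day length before constant light is labelled as 8 h (nights of 16 h), but the series description has days and nights of 12 h. Counted from ZT24, a day of 8 h ends at the ZT32 harvest and a day of 12 h at the ZT36 harvest. The phase of these boundary harvests is therefore a convention. The plants had grown for 18 d by the labels and for 14 d by the series description, and the constant light is labelled 25 °C.

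Soybean is a short-day plant. FT proteins are made in the phloem of leaves and travel to the shoot apex, where FT2a and FT5a promote flowering as florigens. FT1a and FT4 belong to the same family but delay flowering. E1 is a legume-specific nuclear protein with a B3-like domain that represses FT2a and FT5a in long days, and E1La and E1Lb are its close paralogs. In soybean, LHY proteins and the evening complex, to which the LUX proteins belong, act upstream of E1. Williams 82 is known to carry a weak allele of E1.

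On the assembly Gmax_Wm82_a2_v1, the E1 gene occupies chromosome 6 from 20207077 to 20207940 on the plus strand. E1La (36758125 to 36758770) and E1Lb (26120011 to 26120532) are on the plus strand of chromosome 4. FT2a (31109999 to 31114963) and FT2b (31148829 to 31151842) are neighbours on the plus strand of chromosome 16, 33.9 kb apart. FT5a is on the minus strand of the same chromosome (4135885 to 4137742), FT1a on the plus strand of chromosome 18 (57653717 to 57659234) and FT4 on the minus strand of chromosome 8 (47458142 to 47459829). The coverage of each E1 family gene was a whole number of bases, within 0.02, when multiplied by the full span of the gene, as for a gene of a single exon. Reads that fit both E1La and E1Lb, or both FT2a and FT2b, could have been divided between the paralogs in the quantification, and how many were was not measured.

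The libraries held 3.11 to 7.24 Gb of aligned sequence, and those of ZT44 were the shallowest, at 3.11 to 3.53 Gb. One library, ZT32 R, stood apart. It listed 297745 assembled loci, of which 227701 had no strand, against 38181 to 82417 and 803 to 35008 in the other 17 libraries, and its annotated genes summed to 51.3% of 1000000 TPM against 56.2 to 78.6%. The differences that involve ZT32 are therefore also given without it. Between the subjective dark phase and the light phase, the median of all tested genes differed by 0.35 in log2(TPM + 1), and at ZT36 it was 0.53 above ZT32, while after quantile normalization these medians were 0.04 and 0.05.

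TPM is an abundance scaled for gene length and for the total of the library, so the genes can be compared with each other within a library. A gene was counted as expressed when its mean over the 3 replicates reached 1 TPM at any time point. The expressed members were FT2a, FT2b and FT5a, 3 of 8, beside 44.3% of all annotated genes. FT2a and FT5a were above 1 TPM in all 18 libraries and FT2b in 16 of 18. The 3 E1 genes, FT1a and FT4 stayed below 1 TPM in every library. Levels were measured in whole leaves, where fewer cells with a transcript and less transcript per cell cannot be told apart.

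FT2a, a florigen, had the highest mean level of the members, 13.1 TPM over the 18 libraries. Replicates L, M and R had 14.4, 8.84 and 10.2 TPM at ZT24, 29.2, 14.3 and 27.3 TPM at ZT28, and 17.7, 18.5 and 27.7 TPM at ZT32. In the subjective dark phase they had 6.57, 6.74 and 7.22 TPM at ZT36, 9.76, 8.60 and 7.30 TPM at ZT40, and 6.62, 6.70 and 8.21 TPM at ZT44. The 6 libraries of ZT28 and ZT32 were all above the 9 libraries of the dark phase, whereas those of ZT24 overlapped with ZT40. Mean levels were 11.2 ± 2.90, 23.6 ± 8.07, 21.3 ± 5.58, 6.84 ± 0.333, 8.55 ± 1.23 and 7.18 ± 0.894 TPM at ZT24, ZT28, ZT32, ZT36, ZT40 and ZT44 (SD, n = 3 each). The highest mean was 3.45 times the lowest, and the spread between replicates was widest at ZT28, where M was about as low as ZT24 L. In each library FT2a exceeded 87.7 to 99.0% of annotated genes, and its coverage was 21.1 to 200.2 reads per base.

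FT2b, the neighbouring paralog of FT2a, had a narrow maximum at ZT28. L, M and R had 1.20, 2.08 and 1.88 TPM at ZT24, 12.4, 7.85 and 18.2 TPM at ZT28, and 3.15, 4.20 and 2.45 TPM at ZT32. They had 1.33, 0.776 and 0.718 TPM at ZT36, 1.79, 1.37 and 1.56 TPM at ZT40, and 3.66, 3.64 and 3.45 TPM at ZT44. Every library of ZT28 was above every library of the other 5 time points. Mean levels were 1.72 ± 0.460, 12.8 ± 5.20, 3.27 ± 0.878, 0.940 ± 0.335, 1.57 ± 0.209 and 3.58 ± 0.116 TPM in the order of the time points (SD, n = 3 each), and the highest was 13.6 times the lowest. Where FT2b was low, at ZT36, its coverage averaged 5.68 reads per base, so the values there rest on few reads.

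FT5a, the second florigen, was high at both ends of the series and low in its middle. L, M and R had 17.8, 13.8 and 12.6 TPM at ZT24, 14.8, 9.09 and 21.6 TPM at ZT28, and 5.98, 6.25 and 4.19 TPM at ZT32. They had 3.41, 4.46 and 3.55 TPM at ZT36, 9.12, 8.39 and 7.24 TPM at ZT40, and 16.2, 12.9 and 19.7 TPM at ZT44. The 6 libraries of ZT32 and ZT36 were below all 12 others, while ZT24, ZT28 and ZT44 overlapped. Mean levels were 14.7 ± 2.74, 15.2 ± 6.28, 5.47 ± 1.12, 3.81 ± 0.566, 8.25 ± 0.950 and 16.3 ± 3.39 TPM in the order of the time points (SD, n = 3 each), and the highest was 4.28 times the lowest. The 3 expressed genes thus shared their lowest mean at ZT36 but not their highest, which was at ZT28 for FT2a and FT2b and at ZT44 for FT5a. These ranks include near ties, of FT2a at ZT36 (6.84 TPM) and ZT44 (7.18 TPM), and of FT5a at ZT24, ZT28 and ZT44.

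**Figure D1:**
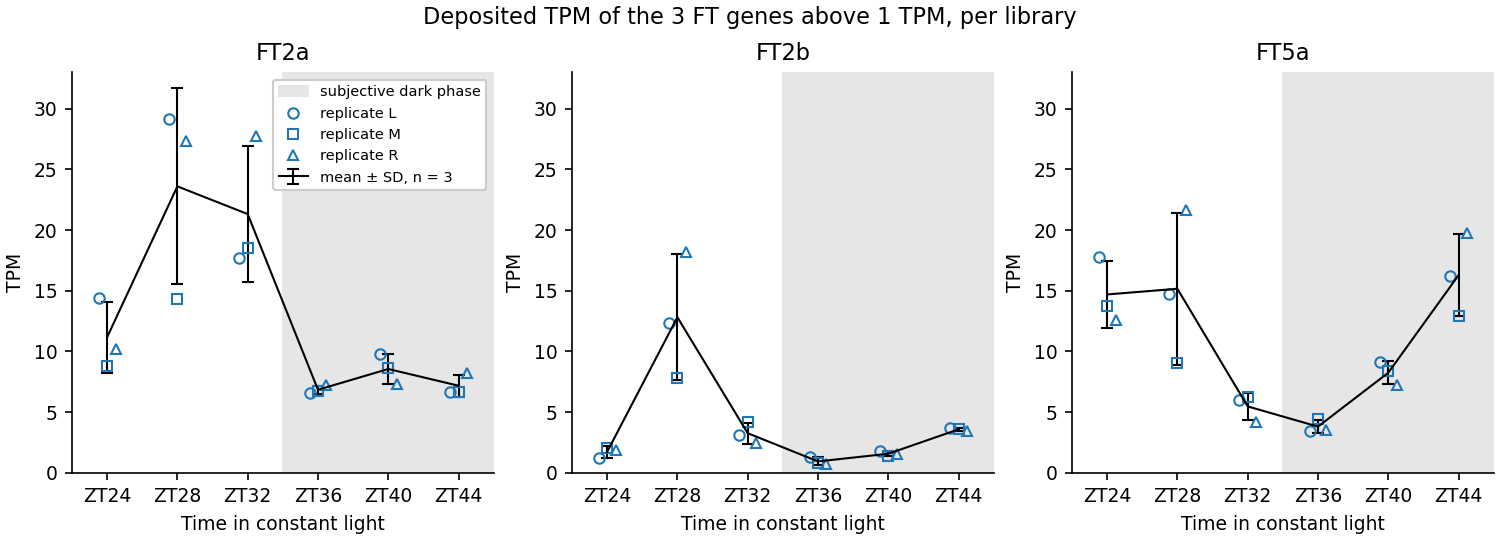
TPM of FT2a, FT2b and FT5a (y axis) at the 6 time points in constant light (x axis), with 1 symbol per library and the mean ± SD of 3 replicates as a line, and the subjective dark phase shaded. FT2a was at 14.3 to 29.2 TPM at ZT28 and ZT32 and at 6.57 to 9.76 TPM in the dark phase, FT2b had its maximum at ZT28, and FT5a was lowest at ZT32 and ZT36.

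Whether these courses exceeded the spread between replicates was tested with limma on log2(TPM + 1), a scale on which changes of low genes are understated. All 3 expressed members passed the F-test over the 6 time points, as did 76.3% of the 24620 genes tested, so passing it does not set them apart. The limma F-test with Benjamini-Hochberg adjustment gave adjusted p = 9.97e-06 for FT2a, 2.44e-09 for FT2b and 2.17e-06 for FT5a. All 3 also passed a fit of a cosine with the period held at 24 h, beside 64.7% of all tested genes. The fitted cosine had its maximum at ZT29.1 for FT2a (limma, Benjamini-Hochberg adjusted p = 0.000257), at ZT27.2 for FT2b (adjusted p = 0.00499) and at ZT47.2 for FT5a (adjusted p = 1.25e-05). The last of these lies after the final harvest, and 20 h of sampling cannot give the period. For FT2b the fitted cosine spanned 1.73 in log2(TPM + 1), against 2.78 between its highest and lowest time points. The cosine thus describes FT2b less closely than FT2a (1.62 against 1.59) and FT5a (1.89 against 1.83).

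Between neighbouring time points, the FT genes rose and fell at different steps. At ZT28 over ZT24, FT2b rose by 2.29 ± 0.25 (SE) in log2(TPM + 1), with a limma adjusted p of 1.10e-07 after Benjamini-Hochberg correction. FT2a rose by 0.98 ± 0.28 at the same step (limma, Benjamini-Hochberg adjusted p = 0.0175), a call that was lost when ZT24 M, ZT24 R, ZT28 L or ZT28 R was left out (0.80 to 0.94, adjusted p = 0.0591 to 0.111). FT5a differed by -0.02 ± 0.28 with a 95% interval of -0.60 to 0.56. Rising at this step were thus 2 of 3 tested members, beside 4.65% of all tested genes.

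At ZT32 over ZT28, FT2b fell by 1.64 ± 0.25 (limma, Benjamini-Hochberg adjusted p = 3.61e-05) and FT5a by 1.26 ± 0.28 (adjusted p = 0.00292), beside 7.40% of tested genes that fell. FT2a differed by -0.11 ± 0.28, with a 95% interval of -0.69 to 0.47. FT2a was therefore the member still near its highest level at ZT32. Without ZT32 R, FT2b fell by 1.50 and FT5a by 1.11 at this step, and FT2a differed by -0.30. Without ZT28 R, FT5a fell short of the threshold (-0.98, limma Benjamini-Hochberg adjusted p = 0.0520).

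At ZT36 over ZT32, from the last harvest called light to the first called dark, FT2a fell by 1.48 ± 0.28 (limma, Benjamini-Hochberg adjusted p = 0.000112). FT2b fell by 1.13 ± 0.25 (limma adjusted p = 0.000575), beside 7.82% of tested genes that fell. Of the 24620 tested genes, 11731 were called higher and 1926 lower at this step, against 5729 higher and 4960 lower after quantile normalization. Relative to the median of all tested genes FT2a differed by -2.01 and FT2b by -1.66. FT5a differed by -0.42 ± 0.28 (adjusted p = 0.202) and by -0.95 relative to that median. With quantile normalization FT5a fell by 1.15 (adjusted p = 0.000582), and with TPM rescaled without the 100 highest genes by 0.87 (adjusted p = 0.0140). Without ZT32 R, the fall was 1.29 for FT2a and 1.27 for FT2b, both still called by limma with Benjamini-Hochberg adjustment.

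At ZT40 over ZT36, FT5a rose by 0.94 ± 0.28 (limma, Benjamini-Hochberg adjusted p = 0.0317), beside 5.76% of tested genes. The call was lost in 7 of 26 alternatives, with adjusted p = 0.0518 on FPKM and up to 0.144 when any of ZT36 L, ZT36 R, ZT40 L, ZT40 M and ZT40 R was left out. FT2a differed by 0.28 ± 0.28 and FT2b by 0.42 ± 0.25 at this step, with 95% intervals of -0.30 to 0.86 and -0.10 to 0.94.

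At ZT44 over ZT40, FT5a rose by 0.89 ± 0.28 (limma, Benjamini-Hochberg adjusted p = 0.0250) and FT2b by 0.84 ± 0.25 (adjusted p = 0.0196), beside 4.31% of tested genes. The call of FT5a was lost without ZT40 M, ZT40 R, ZT44 L or ZT44 R (adjusted p = 0.0577 to 0.108), and that of FT2b without ZT40 M, ZT40 R or ZT44 M (adjusted p = 0.0567 to 0.0820). In ZT44 L a locus on the opposite strand was assembled across FT2b, and without that library the rise of FT2b was 0.82 (adjusted p = 0.0492). FT2a differed by -0.22 ± 0.28, with a 95% interval of -0.80 to 0.36. The FT2b and FT5a calls were also lost when no filter was used (adjusted p = 0.0510 and 0.0505), as was that of FT5a at ZT40 over ZT36 (0.0692). The median of all tested genes differed by -0.31 at ZT44 over ZT40.

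The last and first harvests were 20 h apart. At ZT44 over ZT24, FT5a differed by 0.13 ± 0.28 (95% interval -0.44 to 0.71) and FT2a by -0.55 ± 0.28 (95% interval -1.13 to 0.03). FT2b was higher by 0.77 ± 0.25 (limma, Benjamini-Hochberg adjusted p = 0.0485), beside 4.72% of tested genes. This call was at the threshold and was lost in 14 of 26 alternatives, with adjusted p up to 0.224, reached without ZT24 L.

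**Figure D2:**
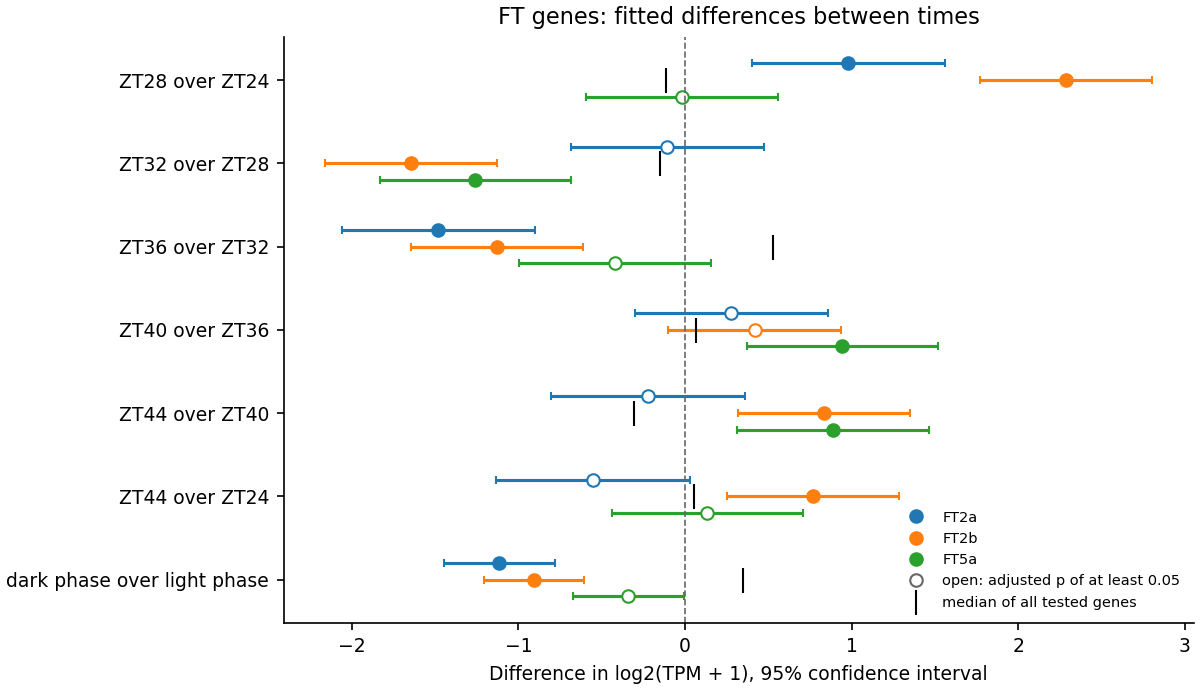
Differences in log2(TPM + 1) of FT2a, FT2b and FT5a from limma (x axis, points with 95% confidence intervals) for 6 pairs of time points and for the dark phase over the light phase (y axis), with open symbols where the adjusted p is at least 0.05 and a black bar at the median of all tested genes. FT2b had the largest difference plotted, 2.29 at ZT28 over ZT24, and FT2a the largest at ZT36 over ZT32, -1.48, where the median of all genes was 0.53.

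Over the 2 phases, FT2a ranged in the subjective dark phase from 6.57 to 9.76 TPM with a median of 7.22 TPM, and in the light phase from 8.84 to 29.2 TPM with a median of 17.7 TPM. Its means were 7.52 ± 1.11 TPM in the dark phase and 18.7 ± 7.68 TPM in the light phase (SD, n = 9 each), and the phases overlapped only through the lowest light value, ZT24 M. FT2a was lower in the dark phase, with a difference of -1.12 ± 0.16 (SE) in log2(TPM + 1) (limma, Benjamini-Hochberg adjusted p = 1.82e-06). An exact two-sided permutation test over all 48620 divisions of the libraries into 9 and 9 gave p = 8.23e-05, where the smallest possible is 4.11e-05. In this test libraries of 1 time point count as independent. Without ZT32 R the limma difference was -1.05.

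FT2b ranged from 0.718 to 3.66 TPM in the dark phase (median 1.56) and from 1.20 to 18.2 TPM in the light phase (median 3.15). It was lower in the dark phase, with a difference of -0.91 ± 0.15 (limma, Benjamini-Hochberg adjusted p = 7.13e-06, exact permutation p = 0.0396). However, the 2 ranges overlapped widely, and without ZT32 R the difference was -0.95. Of the light phase, only the mean at ZT28 (12.8 TPM) was above all means of the dark phase. ZT24 (1.72 TPM) and ZT32 (3.27 TPM) were below ZT44 (3.58 TPM). The limma p measures the spread between replicates, not that between the time points of a phase. With FT2a, 2 of 3 tested members were lower in the dark phase, beside 10.7% of tested genes. FT5a had 3.41 to 19.7 TPM in the dark phase (median 8.39) and 4.19 to 21.6 TPM in the light phase (median 12.6), a difference of -0.34 ± 0.16 (limma, Benjamini-Hochberg adjusted p = 0.0674, exact permutation p = 0.356). That difference passed the threshold in 6 of 26 alternatives, among them quantile normalization (-0.75, adjusted p = 0.000138) and leaving out ZT28 M (adjusted p = 0.0163) or ZT32 R (adjusted p = 0.0235). Relative to the median of all tested genes, the differences were -1.46 for FT2a, -1.25 for FT2b and -0.69 for FT5a.

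The different courses changed which florigen gene had the higher level. FT5a was above FT2a in 3 of 3 libraries at ZT24 and at ZT44, and FT2a was above FT5a in 3 of 3 libraries at ZT28, ZT32, ZT36 and ZT40. The difference FT2a minus FT5a within a library, in log2(TPM + 1), averaged -0.38 ± 0.18, 0.62 ± 0.31, 1.77 ± 0.60, 0.71 ± 0.18, 0.04 ± 0.04 and -1.07 ± 0.18 from ZT24 to ZT44 (SD, n = 3 each). At ZT40 the 2 genes had nearly the same level, 8.55 TPM for FT2a and 8.25 TPM for FT5a, and at ZT32 FT2a had 3.89 times the mean level of FT5a (2.96 times without ZT32 R). The value at ZT32 was highest in ZT32 R, at 2.47, and the other 2 libraries there had 1.42 and 1.43.

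FT2a was above its neighbour FT2b in all 18 libraries. The difference FT2a minus FT2b averaged 2.15 ± 0.59, 0.84 ± 0.31, 2.38 ± 0.60, 2.03 ± 0.29, 1.89 ± 0.17 and 0.83 ± 0.19 in log2(TPM + 1) from ZT24 to ZT44 (SD, n = 3 each). At ZT32 it was 3.06 in ZT32 R and 2.17 and 1.91 in L and M, which averaged 2.04. As a ratio of mean levels it was 1.84 at ZT28 and 6.53 at ZT32 (4.93 without ZT32 R), so the gap was small where FT2b was at its maximum. FT2b was below FT5a in every library, and the difference FT2b minus FT5a was -0.22 ± 0.03 at ZT28 and -2.53 ± 0.49 at ZT24. These differences are a description, since the division of reads between paralogs was not measured.

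**Figure D3:**
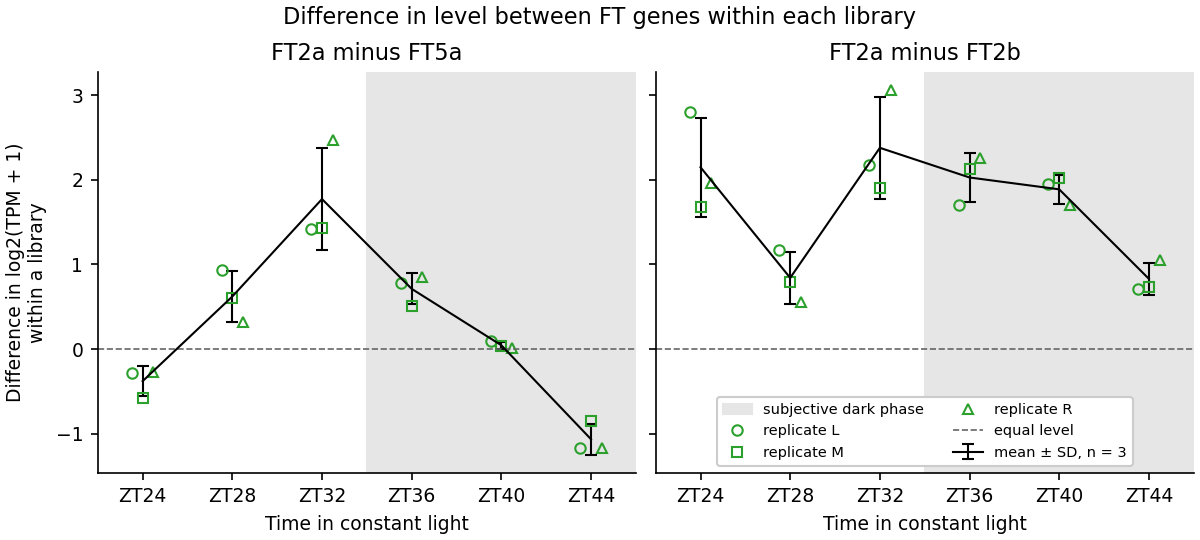
Difference in log2(TPM + 1) within each library (y axis) between FT2a and FT5a and between FT2a and FT2b at the 6 time points (x axis), with 1 symbol per library, the mean ± SD of 3 replicates as a line and the dark phase shaded. FT2a minus FT5a was below 0 in all libraries of ZT24 and ZT44 and highest at ZT32, and FT2a minus FT2b was above 0 in all 18 libraries.

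The E1 family, whose members repress FT2a and FT5a, was near the limit of detection. Of the 90 values of the 5 members below 1 TPM, 59 were listed at 0, 54 of them with no transcript assembled and 5 (4 of FT1a and 1 of FT4) with one, and the other 31 ranged from 0.00508 to 0.629 TPM with a median of 0.102 TPM. An exact 0 in such a table can also be a failed estimate, so a 0 says only how the gene was listed. In each library, 71.3 to 90.8% of annotated genes were above 0.

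E1 was listed at 0 in 13 of 18 libraries. The 5 others were ZT32 R with 0.629 TPM, ZT36 L with 0.0605 TPM, ZT36 M with 0.0150 TPM, ZT40 M with 0.240 TPM and ZT40 R with 0.0322 TPM. ZT32 R, the library that stands apart, held 3805 of the 5348 bases aligned to E1 in all libraries together, and the other 8 libraries of the light phase listed E1 at 0. The whole signal amounts to 35.7 reads of 150 bases over the 18 libraries.

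E1La was listed at 0 in 12 of 18 libraries. The others were ZT28 L with 0.137 TPM, ZT32 L with 0.176 TPM, ZT32 M with 0.300 TPM, ZT36 L with 0.0809 TPM, ZT40 M with 0.102 TPM and ZT44 M with 0.0756 TPM. This was a total of 2912 bases, or 19.4 reads of 150 bases, with no more than 1 library per time point above 0 outside ZT32.

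E1Lb was also listed at 0 in 12 of 18 libraries. It had 0.228 TPM in ZT28 L, 0.167 TPM in ZT28 R, 0.545 TPM in ZT32 M, 0.571 TPM in ZT32 R, 0.174 TPM in ZT36 M and 0.141 TPM in ZT40 R. Its total was 6009 bases, or 40.1 reads of 150 bases. E1Lb, like E1 and E1La, had its highest mean at ZT32, but for E1 this came from ZT32 R alone. Without that library the mean at ZT32 was 0.238 TPM for E1La and 0.272 TPM for E1Lb, still their highest, and E1 had its highest mean, 0.0906 TPM, at ZT40.

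At least 1 of the 3 E1 genes was above 0 in 0 of 3 libraries at ZT24, 2 of 3 at ZT28, 3 of 3 at ZT32, 2 of 3 at ZT36, 2 of 3 at ZT40 and 1 of 3 at ZT44. The share of all annotated genes above 0 also differed. It was 71.7 to 83.1% at ZT24, 79.3 to 90.8% at ZT28 and 87.0 to 88.8% at ZT32. In the dark phase it was 81.5 to 85.2% at ZT36, 86.2 to 89.4% at ZT40 and 71.3 to 75.2% at ZT44. The part of this share in the E1 counts was not tested. Their summed level was 0.176 TPM in ZT32 L, 0.844 TPM in ZT32 M and 1.20 TPM in ZT32 R, and at most 0.365 TPM in any library of another time point. With every annotated gene kept, limma with Benjamini-Hochberg adjustment did not call a change over time for E1 (adjusted p = 0.538), E1La (adjusted p = 0.304) or E1Lb (adjusted p = 0.103). No change over time was thus called for the 3 genes taken singly, which does not show that there was none. Their summed level was not tested, and log2(TPM + 1) understates changes of low genes. ZT44, where 1 of 3 libraries held reads of the E1 family, was also the shallowest time point, and the part of depth in this was not tested.

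FT1a and FT4, the FT family members that delay flowering, were likewise near the limit of detection. FT1a had the lowest mean of the 8 members, 0.0167 TPM over the 18 libraries. FT4, at 0.0434 TPM, was close to E1La, at 0.0484 TPM. FT1a was above 0 in 7 of 18 libraries and reached 0.115 TPM in ZT40 M at a coverage of 0.537 reads per base. FT4 was above 0 in 7 of 18 libraries and reached 0.240 TPM in ZT36 M at a coverage of 1.57 reads per base. FT1a was above 0 in 5 of 9 libraries of the dark phase and 2 of 9 of the light phase, and FT4 in 2 of 9 of the dark phase and 5 of 9 of the light phase. In the same unfiltered limma fit, neither passed the F-test with Benjamini-Hochberg adjustment (adjusted p = 0.767 for FT1a and 0.857 for FT4). For E1La, E1Lb, FT1a and FT4 the exact permutation test of the dark phase against the light phase gave p from 0.156 (E1Lb) to 0.669 (FT4). For E1 this test cannot decide, since the value of ZT32 R outweighs all its other values together. All 48620 divisions therefore gave a difference at least as large as the observed one. E1 was above 0 in 4 of 9 libraries of the dark phase and, in the light phase, in ZT32 R only.

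**Figure D4:**
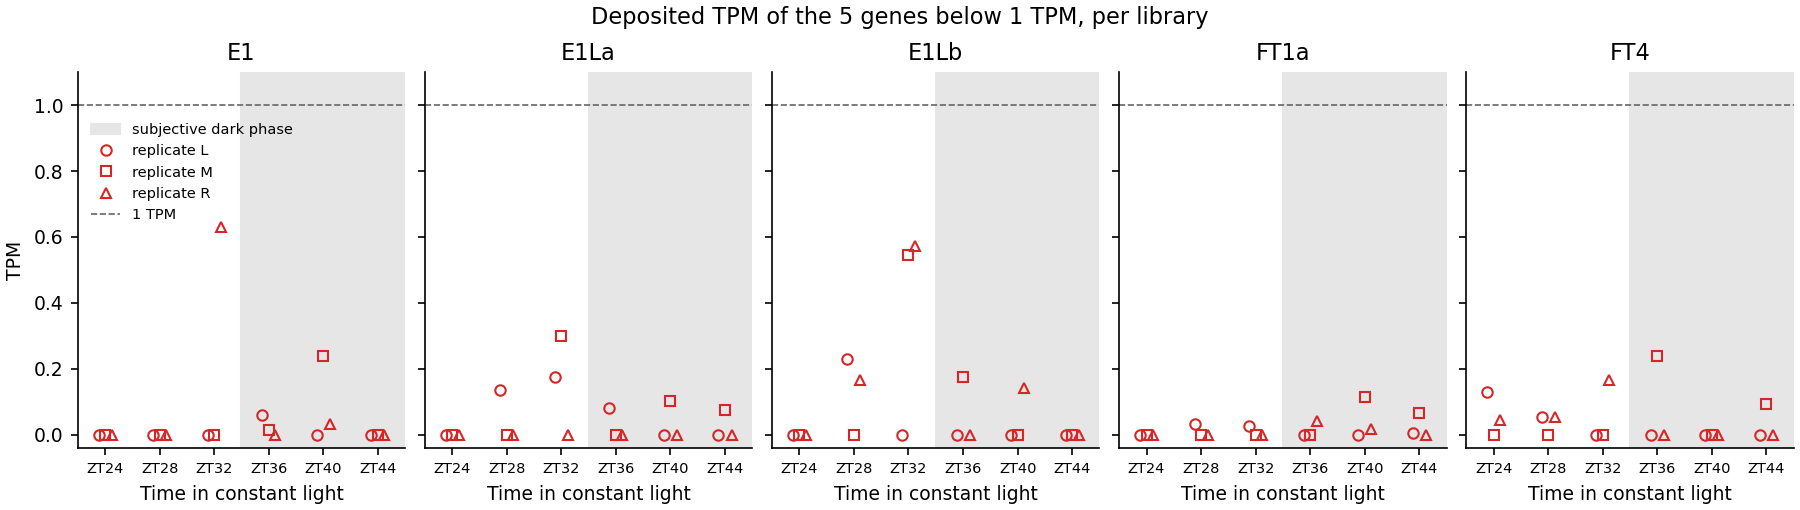
TPM of E1, E1La, E1Lb, FT1a and FT4 (y axis, the same in each panel) at the 6 time points (x axis), with 1 symbol per library, a dashed line at 1 TPM and the dark phase shaded. No library reached 1 TPM, most were listed at 0, and the highest value, 0.629 TPM, was E1 in ZT32 R.

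Among the clock and light genes that the study pairs with an identifier, LHY1a, LHY1b, LHY2a, LHY2b, LUX1, LUX2, PRR5d and PIF4, limma with Benjamini-Hochberg adjustment called 6 of 8 lower and 1 of 8 higher in the dark phase than in the light phase, beside 10.7% of all tested genes lower and 53.4% higher. After quantile normalization, 5510 of the 24620 genes were lower and 6703 higher. LUX2, an evening complex gene, was the one that was higher, by 1.15 in log2(TPM + 1), and LUX1 was not called. The time points within a phase differed, however. At ZT44, in the dark phase, LHY1a, LHY1b, LHY2a and LHY2b had means of 144, 49.9, 44.9 and 132 TPM. Each was above the means of the same gene at ZT28 and ZT32, and LHY2b was also above its mean at ZT24 (105 TPM). At the step ZT44 over ZT40, 6 of 8 rose and 1 of 8 fell, beside 4.31% and 16.3% of all tested genes, the rising ones being the 4 LHY genes, which encode morning transcription factors, PRR5d, a pseudo-response regulator, and PIF4, a light-signalling transcription factor, and the falling one LUX2. Over the same step FT2b and FT5a rose and FT2a did not pass the test.

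As a description of likeness over the 18 libraries, which share their hour of harvest within each time point, log2(TPM + 1) of FT5a had a Pearson r of 0.86 to 0.90 with the 4 LHY genes, -0.83 with LUX1 and -0.76 with LUX2. FT2a had r of -0.10 to 0.09 with the LHY genes and 0.67 with PRR5d, and FT2b had r of 0.29 to 0.42 with the LHY genes and 0.68 with PRR5d. Between members, r was 0.66 for FT2a and FT2b, 0.53 for FT2b and FT5a and 0.16 for FT2a and FT5a. The genes most like FT2a among those tested were Glyma.13G205000 (r = 0.94) and Glyma.16G040400 (r = 0.93), which are given by identifier only. Glyma.13G205000 had mean levels of 16.0, 63.6, 44.1, 4.45, 5.70 and 4.28 TPM from ZT24 to ZT44, and so its maximum was at ZT28, as for FT2a, and its levels in the dark phase were all below that at ZT24.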

How the data were processed

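RNA-seq libraries of wild-type Ws82 leaves were analysed, 18 in all. The authors removed ribosomal RNA with a stranded kit, used Trimmomatic for trimming and HISAT2 2.2.1 for alignment to Gmax_Wm82_a2_v1, and quantified annotated genes and assembled loci with StringTie, whose version and strand setting are not given in the sources used here. The deposited tables list coverage (a signal), FPKM and TPM. The assembled loci alone sum to 1000000 TPM in each library, and the annotated genes are listed on the same scale beside them. Without the strand setting, reads from a gene and an opposite-strand transcript cannot be told apart. For 2 libraries the coverage column holds very small negative values. Read counts were not used here, so no counting interval is given. The aligned sequence was taken as coverage divided by FPKM.

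Groups came from the labels. Values were log2(TPM + 1). Genes with a mean of at least 1 TPM at any time point, 24620 of 55589, entered a trended eBayes fit in limma 3.58.1 (R 4.3.3), from which came an F-test over time, a 24 h cosine test and contrasts, with Benjamini-Hochberg adjustment over all tested genes and a threshold of 0.05. The fit was also run on simulated normal data with the spread of each gene capped at the median spread. That setting is easier than these libraries, so it checks the code and not the calls. Phases were also compared by exact permutation. The labels do not say whether replicates were separate plants, and p-values measure the spread between these libraries. Letters L, M and R were not taken to pair libraries.

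The members, gene lists and tests were chosen with earlier results of these data known. Named were the 8 members, the 8 clock and light genes that the study pairs with an identifier, and the 2 genes most like the member with the highest mean TPM. Gene names were given with the identifiers. The RefSeq table for Glycine_max_v4.0 holds 59048 genes and 0 of the files' identifiers. It lists 7 of the 8 member names, all on the same chromosomes, and FT4 rests on the name given. Other FT, flowering, leaf and meristem genes on the lists could not be named from it, so the leaf label was not checked against markers. No sequences are printed, since none of this assembly were used here.

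Alternatives were a pseudocount of 0.1, quantile normalization, filters of at least 5 TPM or none, eBayes without trend, a replicate block, TPM rescaled without the 100 highest genes, FPKM, each library left out, and other thresholds for expressed genes. Figures were drawn with matplotlib 3.10.9.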

Additional observations from a re-analysis of the deposited data

Results flagged for a closer look

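StringTie also assembled loci on the minus strand across FT2a, a plus-strand gene, in 7 of 18 libraries, data that the comparisons do not use. They were assembled in 3 of 3 libraries at ZT24, 3 of 3 at ZT36 and 1 of 3 at ZT40, and in none at ZT28, ZT32 and ZT44. Their level was 0.653 to 2.11 TPM, highest in ZT24 L, or 7.59 to 30.2% of the level of FT2a in the same library, and their spans were 356 to 3900 bases. FT2a itself was at 6.57 to 14.4 TPM in these 7 libraries. In ZT44 L, a minus-strand locus of 40941 bases was assembled across FT2b, also a plus-strand gene, at 4.14 TPM, beside 3.66 TPM for FT2b itself in that library. There are no control samples for these signals, and their part in the levels of FT2a and FT2b was not tested. Groups of 3 libraries are too small for a test of single outlying libraries, so none was made.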

How the results depend on the processing

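All 26 alternatives kept 3 of 3 expressed members past the F-test and past the cosine test, and 2 or 3 past the test of the dark phase against the light phase. Expressed members numbered 3 in every alternative but those with TPM rescaled without the 100 highest genes. The rescaling raises every remaining value, high ones included (highest mean of FT2a 162.3, at ZT32), so the threshold of 1 is a looser one on that scale. It gave 5, by adding E1 and E1Lb (highest means 2.10 and 2.88, both at ZT32). The threshold was reached on that scale by 45463 annotated genes, against 24620 of 55589 on the deposited scale. Reaching it therefore does not set the members apart. On that scale and without ZT32 R, a combination added once the data had been seen, the highest means were 0.403 for E1, 1.35 for E1La and 1.46 for E1Lb, so E1La and E1Lb passed and the count was again 5. Of 18 comparisons between time points, 10 were called, with 6 called without a filter, 6 to 10 with a library left out, and 11 with quantile normalization or the rescaling. The count was 6 without ZT40 M and without ZT40 R. A reversed sign occurred only in differences that were never called. FT2a at ZT32 over ZT28 was 0.26 with quantile normalization, 0.25 with the rescaling, and -0.417 to 0.0711 with a library left out. FT2a at ZT44 over ZT40 was 0.0619 with quantile normalization. FT5a at ZT28 over ZT24 was 0.0945 with quantile normalization, 0.10 with the rescaling, and -0.30 to 0.28 with a library left out, and at ZT44 over ZT24 it was -0.006 to 0.28. For these the cause was not tested. With the replicate letter as a block, 10 comparisons between time points and 2 between phases were called, and no call of a member changed. Same-letter libraries deviated together no more than others (median r = -0.01 over 45 pairs, against 0.00 over 90 pairs of different letters), and 8 of 18 libraries correlated best with their own letter. The part of depth in low values was not tested. Of the 5 low members, ZT44 L, M and R (3.11, 3.27 and 3.53 Gb) had 1, 3 and 0 above 0. Among deeper libraries, ZT24 M (6.70 Gb) and ZT40 L (6.25 Gb) had 0, and ZT40 R (7.24 Gb) had 3.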
